A study of Solanum lycopersicum with 18 samples.

Results

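The genes described here are the clock, light signalling and zinc finger genes of tomato (Solanum lycopersicum), read in callus and roots after Rosea1 and Delila were switched on. Members were chosen by words in the gene descriptions of the authors' deposited table. Among the words were CONSTANS, cryptochrome, circadian, phototropic, Dof, C2H2 and zinc finger protein. Values did not enter the rule, though members and word lists were chosen with earlier results of these data known. The words matched 55 of 5295 features. A phytochrome A-associated F-box protein was left out by the rule, which left 54 members. Of these, 23 are clock and light genes and 31 are other zinc finger genes.

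Rosea1 and Delila are a MYB and a bHLH regulator of pigment synthesis from snapdragon, and here they stood under a system induced by dexamethasone (DEX), a synthetic glucocorticoid. All 6 groups come from tomato into which this system was introduced. They are uninduced callus, callus 3 h and 24 h after 10 mg/L DEX, uninduced root, and root 3 h and 24 h after the same dose, with 3 libraries each and 18 in all. Callus is undifferentiated tissue grown in culture, and the roots were those of seedlings. The labels give neither cultivar, plant age nor number of transgenic lines. They do not say whether replicates were separate plants or cultures. No group had DEX without the transgenes, so a response to DEX or handling cannot be told apart from a response to the regulators. Plants grew under 16 h of light and 8 h of dark, and the labels give no clock time of sampling. There is 1 uninduced group for each tissue, so folds after 3 h and 24 h share their reference libraries and are not independent. For genes that can follow the time of day, time of day and induction therefore cannot be told apart.

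The plant clock is a set of transcription factors that repress each other in turn over the day, with LATE ELONGATED HYPOCOTYL (LHY) and its relative CCA1 as the morning repressors in Arabidopsis. Light is sensed by photoreceptors such as the phytochromes, the cryptochromes and the phototropins. CONSTANS-like proteins carry B-box zinc fingers, a CCT domain or both, and CONSTANS itself measures day length in Arabidopsis. Some B-box proteins of Arabidopsis help or hinder light-induced anthocyanin synthesis. Dof and C2H2 proteins are further families of zinc finger transcription factors.

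All values are folds of DEX against uninduced libraries of the same tissue, from the authors' deposited table. A member is called higher or lower when its fold is at least 2 in that direction. Above and below are used for the direction of a smaller fold. Every feature of the table passed 2-fold in at least 1 of the 4 comparisons, since the authors selected the table that way, so family members under that limit are not analysed here. Library values were not analysed here. No spread between replicates, depth or significance can be given for any single fold, and no difference below was tested. The labelled tissues could not be checked against markers, because folds hold no levels. Both transgenes stood between 39.2-fold and 450.1-fold higher per the authors' deposited table, and the uninduced libraries were read as the reference for that reason, so these folds are no check of the labels. As a median over all features, the log2 fold was 0 in callus at both times, -0.58 in roots after 3 h and -0.13 in roots after 24 h, and the values move when the root columns are centred on these medians. Values are uncentred unless they are called centred. Over all features 38.4% were higher and 25.4% lower in roots after 3 h with that column centred, and 14.1% and 19.0% after 24 h.

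At 3 h in callus, 8 of the 23 clock and light members were higher and 7 lower. Of all features of the table, 27.8% were higher and 23.4% lower in that comparison. At 24 h in callus 6 were higher and 4 lower, where 18% and 21.5% of all features were. In roots after 3 h 9 were higher and 10 lower, where 31.3% and 44.6% of all features were. With that column centred, the split was 10 higher and 3 lower, where 38.4% and 25.4% of all features were. In roots after 24 h 5 were higher and 1 lower, where 11.7% and 21.9% of all features were, and centring gave 5 and 0, where 14.1% and 19.0% of all features were. Their median log2 fold in the same order was 0.12, 0.06, -0.86 and -0.06. Of the uncentred shares, the farthest from that of all features was the 4.35% lower in roots after 24 h. The families inside the group differ from each other.

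Of the clock genes, 3 are members, and the words pseudo response regulator, gigantea, early flowering and zeitlupe matched 0 features. The LHY and CCA1-like gene (Solyc10g005080), of the morning repressors, was 2.13-fold lower in roots after 3 h per the authors' deposited table. Its other folds per the authors' deposited table were 1.18-fold below in roots after 24 h, and 1.13-fold and 1.43-fold above in callus after 3 h and 24 h. Callus therefore held no fold of this gene past 2, and with the root column centred the root 3 h value was not past it either.

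A pair of genes carries the description circadian clock coupling factor ZGT, after a tobacco gene that links the clock with light-regulated transcription. Solyc06g084320 was 2.80-fold and 2.62-fold higher in callus after 3 h and 24 h, and 2.20-fold higher in roots after 3 h per the authors' deposited table. In roots after 24 h it stood 1.23-fold below per the authors' deposited table. The other copy, Solyc09g064820, was 6.59-fold higher in roots after 3 h and 2.01-fold lower after 24 h per the authors' deposited table. From the authors' deposited table, its root value after 24 h was 13.2-fold below that after 3 h, the widest such gap among the 54 members in roots. Its callus fold was listed as exactly 1 at both times, so nothing can be read for it there. Both ZGT genes were thus high early and not late in roots, while the copy with callus folds stayed above 2-fold there at both times. In these 3 clock genes, 2 were higher and 1 lower in roots after 3 h, where 31.3% and 44.6% of all features were. After 24 h 0 were higher and 1 lower, where 11.7% and 21.9% of all features were. With the root columns centred, 0 of the 3 were lower at either time, where 25.4% and 19.0% of all features were.

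Of the photoreceptors, cryptochrome 1b (Solyc12g057040), a blue light receptor, is a member. It was 2.41-fold and 2.03-fold higher in callus after 3 h and 24 h per the authors' deposited table. In roots it was 2.01-fold lower after 3 h and 1.78-fold above after 24 h per the authors' deposited table. The tissues thus lay on opposite sides of the uninduced level after 3 h, by folds barely past 2, and the root 3 h fold was under 2 once its column was centred.

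NPH3 family proteins are adaptors of a ubiquitin ligase, and in Arabidopsis NPH3 itself binds phototropins in bending towards light. Of the 9 members, more were lower than higher after 3 h in both tissues. In callus 2 were higher and 5 lower after 3 h, and 0 higher and 3 lower after 24 h. As shares 55.6% and 33.3% were lower in callus, where 23.4% and 21.5% of all features were. Higher there were 22.2% and 0%, beside 27.8% and 18% of all features. In roots 1 was higher and 4 lower after 3 h, and 0 were higher and 0 lower after 24 h. Lower in roots after 3 h were thus 44.4%, beside 44.6% of all features, and higher were 11.1%, beside 31.3%. After 24 h 11.7% of all features were higher and 21.9% lower in roots. With the root 3 h column centred the split at 2-fold was 2 and 2, beside 38.4% and 25.4% of all features, while 6 of the 9 still lay below 1 and 3 above, as without centring. Their median log2 fold was -1.06 and -0.82 in callus after 3 h and 24 h, against 0 for all features at both times. In roots it was -0.96 after 3 h and -0.37 after 24 h.

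Within the family, Solyc03g119960 and Solyc09g074630 were lower in both tissues after 3 h. Solyc03g119960 was 2.09-fold and 3.89-fold lower in callus after 3 h and 24 h per the authors' deposited table. In roots it was 3.84-fold lower after 3 h and 1.05-fold below after 24 h per the authors' deposited table. Solyc09g074630 was 2.42-fold lower in callus and 3.82-fold lower in roots after 3 h, and 1.77-fold and 1.46-fold below after 24 h per the authors' deposited table. Both thus lay nearer to the uninduced level after 24 h in roots.

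Solyc01g105680 was the NPH3 member with opposite calls between the tissues. It was 2.22-fold and 2.19-fold lower in callus after 3 h and 24 h, and 2.94-fold higher in roots after 3 h per the authors' deposited table. At 24 h in roots it stood 1.23-fold above per the authors' deposited table. Solyc09g048980 carried the lowest callus fold of the group, 5.86-fold lower, and the same value at both times per the authors' deposited table. The reads behind this repeated fold are not shown by the table.

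The remaining NPH3 genes had smaller folds. Solyc01g107180 and Solyc07g052970 were 2.08-fold and 2.31-fold higher in callus after 3 h, with their other folds all under 2 per the authors' deposited table, though centring put Solyc07g052970 past 2-fold in roots after 3 h. Solyc11g040040 was 2.51-fold lower in callus after 3 h alone per the authors' deposited table. Solyc02g021640 and Solyc02g092560 were 2.10-fold and 2.09-fold lower in roots after 3 h alone per the authors' deposited table, and neither passed 2-fold there once centred. No single time or tissue was thus shared by all 9.

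**Figure D1:**
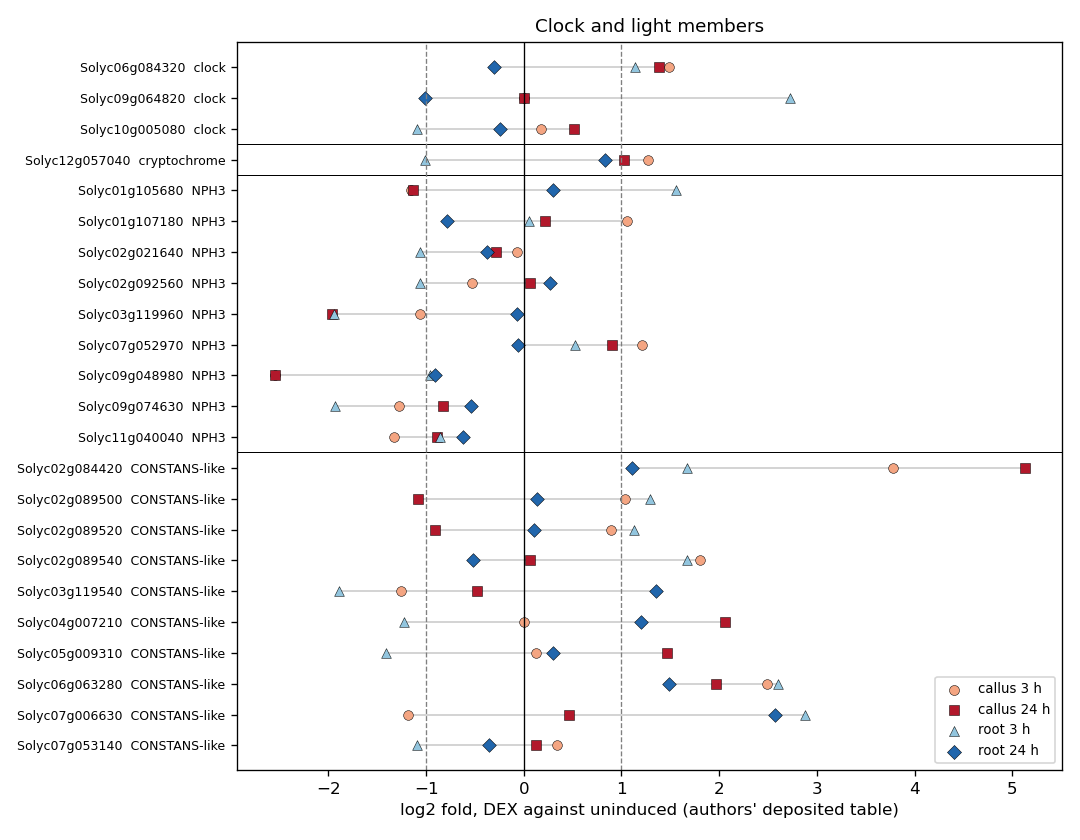
Log2 folds of DEX against uninduced libraries for the 23 clock and light members, by family, with circles and squares for callus after 3 h and 24 h and triangles and diamonds for roots after 3 h and 24 h. The dashed lines mark 2-fold, there are no error bars because library values were not analysed here, and the rightmost point is Solyc02g084420 at 34.9-fold in callus after 24 h.

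The 10 CONSTANS-like genes held the highest folds among the clock and light members. In callus 4 were higher and 2 lower after 3 h, and 4 higher and 1 lower after 24 h. All features gave 27.8% higher and 23.4% lower there after 3 h, and 18% and 21.5% after 24 h. In roots 6 were higher and 4 lower after 3 h, and 5 higher and 0 lower after 24 h, where all features gave 31.3% and 44.6%, then 11.7% and 21.9%. Centring the root columns gave 6 and 1 after 3 h and 5 and 0 after 24 h, where all features gave 38.4% and 25.4%, then 14.1% and 19.0%. Their median log2 fold was 0.62, 0.29, 1.21 and 0.71 in callus after 3 h and 24 h and in roots after 3 h and 24 h.

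Solyc02g084420, described as CONSTANS-LIKE 2 after an Arabidopsis protein, led the group. It was 13.7-fold higher in callus after 3 h and 34.9-fold higher after 24 h per the authors' deposited table. In roots it was 3.18-fold and 2.16-fold higher after 3 h and 24 h per the authors' deposited table. From the authors' deposited table, its 24 h value was 2.54-fold above the 3 h value in callus and 1.47-fold below it in roots. The gene was thus above 2-fold everywhere, with its largest folds in callus.

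Solyc06g063280, another CONSTANS-like zinc finger gene, was also higher in all 4 comparisons. It stood at 5.62-fold and 3.92-fold in callus after 3 h and 24 h per the authors' deposited table. In roots it stood at 6.05-fold and 2.80-fold after 3 h and 24 h per the authors' deposited table. Its folds were of like size in the tissues and smaller after 24 h in both. Both genes are annotated with the domain IPR000315, the B-box zinc finger.

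The remaining gene with that annotation, Solyc07g053140, was 2.14-fold lower in roots after 3 h per the authors' deposited table. Its other folds per the authors' deposited table were 1.27-fold and 1.09-fold above in callus and 1.28-fold below in roots after 24 h. With the root 3 h column centred it stayed below 1 and under 2-fold, and the 3 genes with this annotation then gave 2 higher and 0 lower there.

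A further set of 4 CONSTANS-like genes is annotated with the CCT domain, IPR010402, and these moved differently over time. At most 1 domain was read for each gene, and the genes described as tomato CONSTANS-like 1, 2 and 3 carry none. The other CONSTANS-like genes may thus have a CCT domain too, and the course cannot be tied to that domain. In roots 3 of the 4 were lower and 1 higher after 3 h, and 3 were higher and 0 lower after 24 h. In callus 0 were higher and 2 lower after 3 h, and 2 higher and 0 lower after 24 h. Of all features 31.3% were higher and 44.6% lower in roots after 3 h, and 11.7% and 21.9% after 24 h. In callus those shares were 27.8% and 23.4%, then 18% and 21.5%. With root columns centred they were 38.4% and 25.4% in roots after 3 h, and 14.1% and 19.0% after 24 h. Centring the root 3 h column left 1 higher and 1 lower, with 3 of the 4 still below 1, and the 24 h split stayed at 3 and 0. Against the 3 h value directly, 3 of the 4 were at least 2-fold higher after 24 h in callus and 3 of the 4 in roots, also with the root columns centred. Of the 3 in callus, Solyc04g007210 was listed at exactly 1 after 3 h. The reads behind that value are not shown, so the callus rise of this gene is uncertain. Among all features 15% and 26.0% were higher after 24 h than after 3 h in callus and in roots. Lower were 19.8% and 23.0%. With the root columns centred, 16.7% of all features were higher and 35.3% lower in roots.

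Solyc03g119540 had the widest course of these in roots. It was 3.71-fold lower after 3 h and 2.55-fold higher after 24 h in roots per the authors' deposited table. In callus it was 2.39-fold lower after 3 h and 1.39-fold below after 24 h per the authors' deposited table. From the authors' deposited table, its root value after 24 h was 9.45-fold above that after 3 h.

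The genes described as CONSTANS-LIKE 16 took the same course in roots, although with the column centred neither was past 2-fold after 3 h. Solyc04g007210 was 2.34-fold lower after 3 h and 2.31-fold higher after 24 h in roots per the authors' deposited table. In callus it was listed at exactly 1 after 3 h and 4.18-fold higher after 24 h per the authors' deposited table. Solyc05g009310 was 2.67-fold lower after 3 h and 1.23-fold above after 24 h in roots per the authors' deposited table. Its callus folds per the authors' deposited table were 1.09-fold above after 3 h and 2.76-fold higher after 24 h.

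The fourth CCT gene, Solyc07g006630, differed from these in roots. It was 7.34-fold and 5.96-fold higher in roots after 3 h and 24 h per the authors' deposited table. In callus it was 2.27-fold lower after 3 h and 1.38-fold above after 24 h per the authors' deposited table. Together with Solyc01g105680 it was lower in callus and higher in roots after 3 h, as 1.53% of all features were, and both kept these calls with the root column centred.

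Chloroplast genes moved over the same times. Of 52 features with photosynthesis words in their description, used as markers of green tissue, 46 were lower and 1 higher in roots after 3 h, and 0 lower and 33 higher after 24 h. Lower were thus 88.5% after 3 h, beside 44.6% of all features, and higher were 63.5% after 24 h, beside 11.7%. Centring gave 36 lower and 1 higher after 3 h, where 25.4% and 38.4% of all features were. After 24 h it gave 0 lower and 39 higher, where 19.0% and 14.1% were. In callus 23 of the 52 were lower and 1 higher after 3 h, where 23.4% and 27.8% of all features were. At 24 h 2 were lower there and 16 higher, where 21.5% and 18% were. The median log2 fold of the 52 in roots was -2.08 after 3 h and 1.22 after 24 h. Features with histone, cyclin or DNA replication in their description were taken as markers of dividing cells. Those with root cap, root hair or aquaporin were taken as root markers. Such words do not make a feature specific to dividing cells or to root tissue. Each set was more often lower than higher in both tissues. In roots 44.6% and 21.9% of all features were lower after 3 h and 24 h. Of 69 dividing-cell features 61 were lower in roots after 3 h and 34 after 24 h, or 45 and 29 with centred columns. In callus 10 and 31 of them were lower, or 14.5% and 44.9%. Of 24 root features 15 and 12 were lower in roots after 3 h and 24 h, or 10 and 10 with centred columns. In callus 8 and 7 of them were lower, or 33.3% and 29.2%. Of all features 23.4% and 21.5% were lower in callus, and 25.4% and 19.0% in roots with centred columns. The part of greening tissue, of light or of these other markers in the folds of the members was not tested.

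The 3 genes described as tomato CONSTANS-like 1, 2 and 3 have neighbouring identifiers, and their courses ran the other way. CONSTANS-like 1 (Solyc02g089540) was 3.49-fold higher in callus and 3.18-fold higher in roots after 3 h per the authors' deposited table. At 24 h it stood 1.04-fold above in callus and 1.43-fold below in roots per the authors' deposited table. CONSTANS-like 2 (Solyc02g089500) was 2.06-fold higher in callus and 2.45-fold higher in roots after 3 h per the authors' deposited table.

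At 24 h CONSTANS-like 2 was 2.12-fold lower in callus and 1.10-fold above in roots per the authors' deposited table. CONSTANS-like 3 (Solyc02g089520) stood 1.86-fold above in callus and 2.19-fold higher in roots after 3 h per the authors' deposited table. Its 24 h folds per the authors' deposited table were 1.87-fold below in callus and 1.08-fold above in roots. All 3 had 24 h values at least 2-fold below their 3 h values in both tissues, by 3.35-fold to 4.37-fold in callus and 2.03-fold to 4.55-fold in roots from the authors' deposited table. In callus 19.8% of all features were that far below their 3 h values, and in roots 23.0%, or 35.3% with the root columns centred. How reads of similar neighbouring copies were divided remained not given in the sources used here, and the 3 folds may not be independent.

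Other light and clock genes of the table were gathered by words such as COP1, FAR1, early light-induced and short hypocotyls, which gave 7 features. Of these 2 were higher and 0 lower in callus after 3 h, where 27.8% and 23.4% of all features were. After 24 h 1 was higher and 0 lower there, where 18% and 21.5% of all features were. In roots 2 were higher and 5 lower after 3 h, and 1 higher and 0 lower after 24 h, where 31.3% and 44.6% of all features were higher or lower after 3 h and 11.7% and 21.9% after 24 h. Centring made the 3 h split 2 and 2, where all features gave 38.4% and 25.4%. It left the 24 h split at 1 and 0, where all features gave 14.1% and 19.0%. The calls lost were those of Solyc07g063350, Solyc06g048470 and Solyc07g062470. Solyc07g063350, described as COP1-interacting protein 7, which promotes light-dependent gene expression in Arabidopsis, was 13.7-fold and 7.35-fold higher in callus per the authors' deposited table. In roots it was 2.19-fold lower after 3 h and 1.76-fold below after 24 h per the authors' deposited table.

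A second gene of that description, Solyc06g048470, was under 2-fold in callus and 2.13-fold lower in roots after 3 h per the authors' deposited table. The light-regulated protein-like gene Solyc09g092110 was 16.6-fold lower in roots after 3 h and 2.49-fold higher after 24 h per the authors' deposited table, and its callus folds were exactly 1. An early light-induced protein (Solyc09g082690), of a family that protects chloroplasts in strong light, was 3.21-fold higher in roots after 3 h per the authors' deposited table. The FAR1-related gene Solyc09g057870, of a family that carries phytochrome A signals in Arabidopsis, was 2.03-fold higher in callus and 2.63-fold higher in roots after 3 h per the authors' deposited table. The pair of light-dependent short hypocotyls genes, Solyc10g008000 and Solyc07g062470, was 5.61-fold and 2.03-fold lower in roots after 3 h per the authors' deposited table. Both had folds under 2 in the other comparisons.

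Among the 31 other zinc finger members, 11 were higher and 7 lower in callus after 3 h, and 4 higher and 3 lower after 24 h. As shares these were 35.5% and 22.6%, where all features gave 27.8% and 23.4%, and 12.9% and 9.68%, where all features gave 18% and 21.5%. In roots 10 were higher and 10 lower after 3 h, and 4 higher and 4 lower after 24 h. These were 32.3% each way beside 31.3% and 44.6% of all features, and 12.9% each way beside 11.7% and 21.9%. Centred root columns gave 14 and 3 after 3 h and 5 and 1 after 24 h. Under that scaling the shares were 45.2% and 9.68% beside 38.4% and 25.4% of all features, and 16.1% and 3.23% beside 14.1% and 19.0%. By family they are 8 Dof genes, 3 genes described as C2H2L domain class, 9 CHP-rich genes and 11 genes named zinc finger protein with no family.

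Dof proteins bind DNA through a single zinc finger, and in Arabidopsis the cycling Dof factors repress CONSTANS. Of the 8 members, 0 were higher and 2 lower in callus after 3 h, and 2 higher and 2 lower after 24 h. Lower in callus were thus 25.0% at both times, near the 23.4% and 21.5% of all features. Higher there were 0% and 25.0%, beside 27.8% and 18% of all features. In roots 1 was higher and 3 lower after 3 h, and 0 higher and 2 lower after 24 h. Lower in roots were thus 37.5% and 25.0%, beside 44.6% and 21.9% of all features. Higher in roots were 12.5% and 0%, beside 31.3% and 11.7% of all features. Centring left 1 and 1 after 3 h and 0 and 1 after 24 h in roots, where all features gave 38.4% and 25.4%, then 14.1% and 19.0%. Their median log2 fold was -0.29 and 0 in callus and -0.65 and -0.58 in roots.

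Solyc06g071480, described as Dof zinc finger protein 12, was the only member of the 54 that was lower in all 4 comparisons, as 3.87% of all features were. It was 2.74-fold lower in callus after 3 h and 11.9-fold lower after 24 h per the authors' deposited table. In roots it was 2.70-fold and 2.55-fold lower after 3 h and 24 h per the authors' deposited table. The callus 24 h fold stands well apart from the other 3, which were of like size. With the root columns centred its root log2 folds were -0.85 after 3 h, which is under 2-fold, and -1.22 after 24 h.

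A second Dof 12 gene, Solyc11g072500, was also lower in callus after 24 h, by 4.38-fold per the authors' deposited table. Its other folds per the authors' deposited table were 1.93-fold, 1.10-fold and 1.85-fold below, in callus after 3 h and roots after 3 h and 24 h. The last of this name, Solyc06g005130, was 3.32-fold and 2.17-fold lower in roots after 3 h and 24 h per the authors' deposited table, and exactly 1 in callus. In every comparison with a fold other than 1, the 3 Dof 12 genes were thus below the uninduced level as deposited. With the root column centred Solyc11g072500 lay above it after 3 h, at a log2 fold of 0.45, and Solyc06g005130 was under 2-fold after 24 h.

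The remaining Dof genes were mixed. Solyc09g010680 was 4.14-fold higher in callus after 24 h per the authors' deposited table. Its callus fold after 3 h was listed as exactly 1, and the reads behind that value are not shown. Solyc05g007880 was 2.03-fold higher in callus after 24 h and Solyc08g082910 was 2.40-fold lower in callus after 3 h per the authors' deposited table. In roots after 3 h Solyc02g088070 was 2.14-fold higher and Solyc11g066050 2.29-fold lower per the authors' deposited table. Each of these 5 passed 2-fold in a single comparison, and Solyc11g066050 in none once the root columns were centred.

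C2H2 zinc fingers form a large class of plant transcription factors, many of them active in stress responses. The table annotates 13 members with this domain, IPR007087, 3 by the C2H2L description and 10 by the name zinc finger protein. Of the 13, 4 were higher and 5 lower in callus after 3 h, and 1 higher and 0 lower after 24 h. In roots 3 were higher and 6 lower after 3 h, and 2 higher and 2 lower after 24 h. Over all features 27.8% were higher and 23.4% lower in callus after 3 h, and 31.3% and 44.6% in roots, followed by 18% and 21.5% and by 11.7% and 21.9% after 24 h. Centring turned the balance in roots, to 4 higher and 2 lower after 3 h and 3 higher and 0 lower after 24 h, where all features gave 38.4% and 25.4%, then 14.1% and 19.0%. No direction in roots therefore held under both scalings.

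Solyc04g080130 was the zinc finger protein higher in all 4 comparisons. Callus held it at 3.37-fold and 2.44-fold, and roots at 2.96-fold and 2.16-fold, after 3 h and 24 h per the authors' deposited table. In all, 3 of the 54 members were higher in all 4 comparisons, this gene and the CONSTANS-like Solyc02g084420 and Solyc06g063280, where 4.17% of all features were, and these 3 were so with centred columns too. Solyc01g107170 came close to it. It was 2.39-fold higher after 3 h and 1.999-fold above after 24 h in callus, and 6.18-fold and 2.00-fold higher in roots per the authors' deposited table. The C2H2L gene Solyc02g085580 was 2.69-fold and 2.83-fold higher after 3 h in callus and roots per the authors' deposited table. At 24 h it stood 1.82-fold and 1.94-fold above in callus and roots per the authors' deposited table, and centring put the root value past 2-fold.

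On the lower side stood the neighbouring genes Solyc05g009170 and Solyc05g009180, both described as zinc finger protein 6. In roots they were 3.20-fold and 3.82-fold lower after 3 h, and 2.01-fold and 2.09-fold lower after 24 h per the authors' deposited table. In callus Solyc05g009180 was 2.31-fold lower after 3 h and Solyc05g009170 1.08-fold above per the authors' deposited table. The pair was thus alike in roots and differed in callus. With the root columns centred both stayed past 2-fold after 3 h and neither did after 24 h.

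Lower in callus after 3 h alone were the C2H2L gene Solyc06g075250, by 3.19-fold, and Solyc06g074360, by 2.90-fold per the authors' deposited table. Solyc01g099340 and Solyc09g074780 were 2.21-fold and 2.09-fold lower in callus after 3 h alone per the authors' deposited table. All 4 were back under 2-fold after 24 h, and none passed it in roots as deposited. With the root 3 h column centred Solyc06g074360 was higher there, at a log2 fold of 1.13. The last C2H2L gene, Solyc04g008500, was 2.05-fold lower in roots after 3 h, under 2-fold once centred, and exactly 1 in callus per the authors' deposited table.

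The 3 genes described as zinc finger protein 7 were lower in roots after 3 h, where 44.6% of all features were. Solyc01g107430, Solyc04g014540 and Solyc11g011890 stood at 2.65-fold, 2.03-fold and 2.48-fold lower there per the authors' deposited table. Centring leaves all 3 under 2-fold in roots, where 25.4% of all features were then lower after 3 h. Solyc11g011890 was 3.98-fold higher in callus after 3 h per the authors' deposited table. With cryptochrome 1b it made 2 members higher in callus and lower in roots after 3 h, as 2.13% of all features were, and neither kept its root call with the column centred.

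The member named for LSD1, a zinc finger protein that restrains cell death in Arabidopsis, is Solyc08g077060. It was 2.48-fold and 4.35-fold higher in callus after 3 h and 24 h per the authors' deposited table. In roots it stood 1.61-fold and 1.64-fold above after 3 h and 24 h per the authors' deposited table. All 4 folds lay above the uninduced level, and the callus folds were larger. Centring put the root 3 h value past 2-fold.

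CHP-rich genes encode proteins with cysteine- and histidine-rich C1 or DC1 domains, a zinc-binding fold named for the lipid-binding domain of protein kinase C. The table annotates 8 of the 9 with IPR011424 and 1 with IPR004146, so they are zinc finger genes by name and not transcription factors by annotation. Of the 9, 6 were higher and 0 lower in callus after 3 h, and 0 higher and 1 lower after 24 h. Higher in callus after 3 h were thus 66.7%, beside 27.8% of all features. In roots 6 were higher and 1 lower after 3 h, and 2 higher and 0 lower after 24 h. Higher in roots were thus 66.7% and 22.2%, beside 31.3% and 11.7% of all features. With centred columns the root splits were 8 and 0, then 2 and 0, or 88.9% and 22.2% higher beside 38.4% and 14.1% of all features. Their median log2 fold was 2.03 in callus and 1.64 in roots after 3 h, against 0 and -0.58 for all features. At 24 h it was -0.06 and 0.27.

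Of these, 5 have neighbouring identifiers from Solyc01g073800 to Solyc01g073860, and they held the 5 highest folds of the 31 zinc finger members in callus after 3 h. Solyc01g073830 stood at 11.7-fold, Solyc01g073820 at 9.02-fold and Solyc01g073840 at 7.30-fold in callus after 3 h per the authors' deposited table. Solyc01g073800 and Solyc01g073860 followed at 4.61-fold and 4.09-fold per the authors' deposited table. At 24 h in callus the 5 lay between 1.77-fold below and 1.25-fold above per the authors' deposited table. Each had thus lost its callus call by 24 h, and from the authors' deposited table the 24 h values were 4.39-fold to 9.50-fold below those after 3 h.

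In roots Solyc01g073840 stood out among the 5, at 10.98-fold higher after 3 h and 2.48-fold higher after 24 h per the authors' deposited table. Solyc01g073860 and Solyc01g073820 were 3.12-fold and 2.15-fold higher in roots after 3 h per the authors' deposited table. Solyc01g073830 and Solyc01g073800 stood 1.76-fold and 1.46-fold above there per the authors' deposited table, both past 2-fold with the column centred. The order of the 5 in roots therefore differs from that in callus. Reads shared between such neighbouring copies may have been counted for more than 1 of them or left out. That step of the counting was not given in the sources used here.

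Elsewhere the CHP-rich genes were less alike. Solyc02g068680 was 3.66-fold higher in callus and 4.11-fold higher in roots after 3 h per the authors' deposited table, and under 2-fold after 24 h. Solyc06g072460 was 3.49-fold higher in roots after 3 h and 2.47-fold lower in callus after 24 h per the authors' deposited table. Solyc09g011260, with the DC1 domain, was 4.04-fold and 7.55-fold higher in roots after 3 h and 24 h per the authors' deposited table. Its callus folds were 1.20-fold below and 1.79-fold above per the authors' deposited table. Solyc08g014370 was 2.02-fold lower in roots after 3 h per the authors' deposited table, and under 2-fold once centred. The DC1 gene was thus the only CHP-rich gene that stood further above the uninduced level after 24 h than after 3 h in roots.

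**Figure D2:**
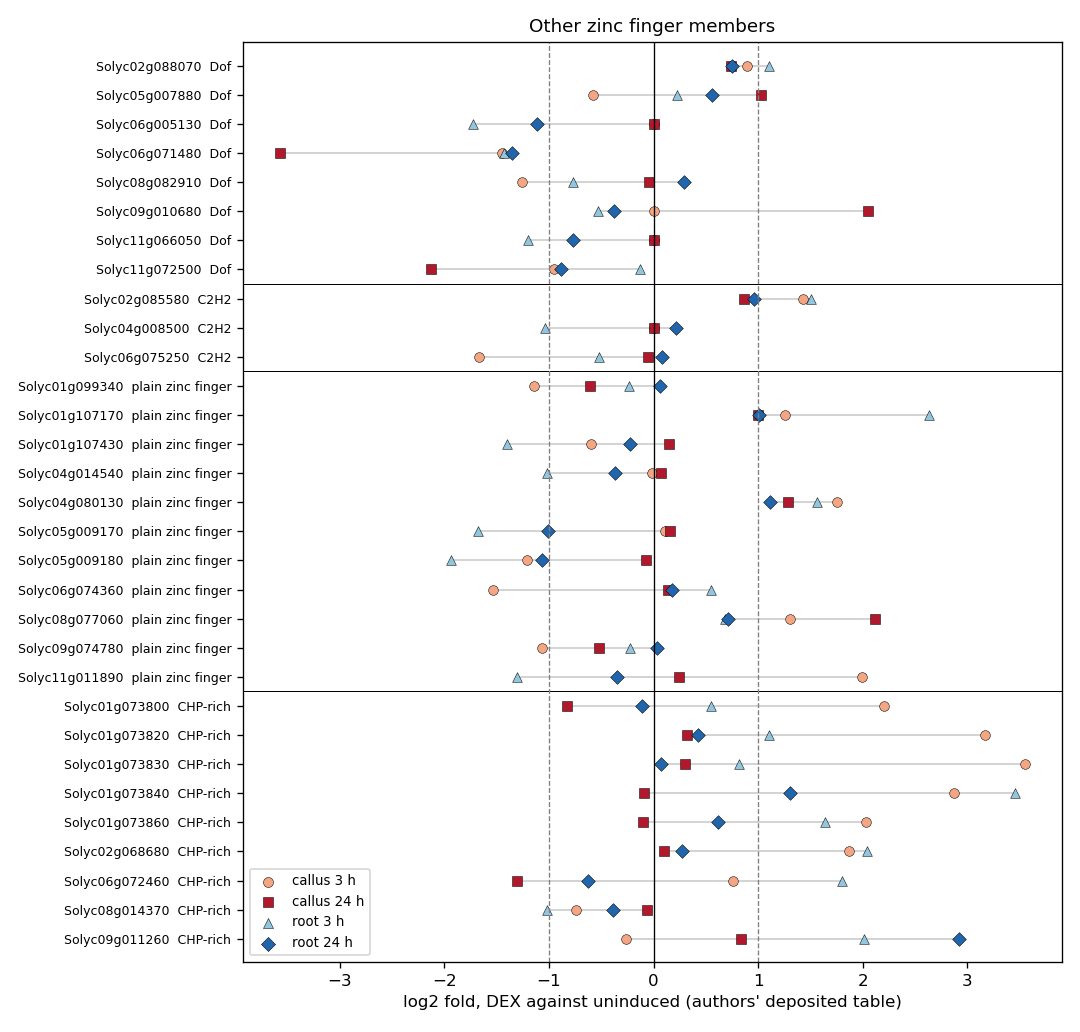
Log2 folds of DEX against uninduced libraries for the 31 other zinc finger members, by family, with circles and squares for callus after 3 h and 24 h and triangles and diamonds for roots after 3 h and 24 h. The dashed lines mark 2-fold, and the CHP-rich genes of the Solyc01g0738 run have their callus 3 h circles to the right, up to 11.7-fold, and their callus 24 h squares near the uninduced level.

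Callus and root comparisons share no control libraries, so their folds can be set side by side. At 3 h 12 of the 54 members were higher in both tissues and 5 lower in both, where 15.5% and 13.7% of all features were. A further 4 members had opposite calls, Solyc01g105680, Solyc07g006630, Solyc11g011890 and Solyc12g057040. They made 2 in each direction, where 2.13% of all features were higher in callus and lower in roots, and 1.53% the reverse. At 24 h 4 were higher in both and 1 lower in both, where 6.52% and 10.6% of all features were, and 0 had opposite calls. Over all features 1.17% were higher in callus and lower in roots after 24 h, and 0.737% the reverse. The 4 were Solyc02g084420, Solyc04g007210, Solyc04g080130 and Solyc06g063280, and the lower member was Solyc06g071480. Counting any size of fold other than 1, 29 of 50 members after 24 h lay on the same side in both tissues, a share of 58.0% against 76.2% over all features. At 3 h the share was 77.1% for the members and 80.2% for all features. No test of these differences was possible.

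With the root columns centred, 16 of the 54 members were higher in both tissues after 3 h and 4 lower in both, where 20.8% and 9.07% of all features were. Higher in callus and lower in roots were 0 members, beside 1.32% of all features. Opposite calls were then 3, all lower in callus and higher in roots, as 2.32% of all features were. They were Solyc01g105680, Solyc07g006630 and Solyc06g074360, which joined them by centring, while Solyc11g011890 and Solyc12g057040 lost their root calls and Solyc06g071480 was no longer lower in both after 3 h. At 24 h the counts stayed at 4 and 1, where 7.63% and 9.56% of all features were. The same-side shares were 68.8% of members against 78.4% of all features after 3 h, and 56.0% against 76.1% after 24 h. Over single members, centring took the lower call from 14 in roots after 3 h and from 4 after 24 h, and gave a higher call to 5 and to 1.

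**Figure D3:**
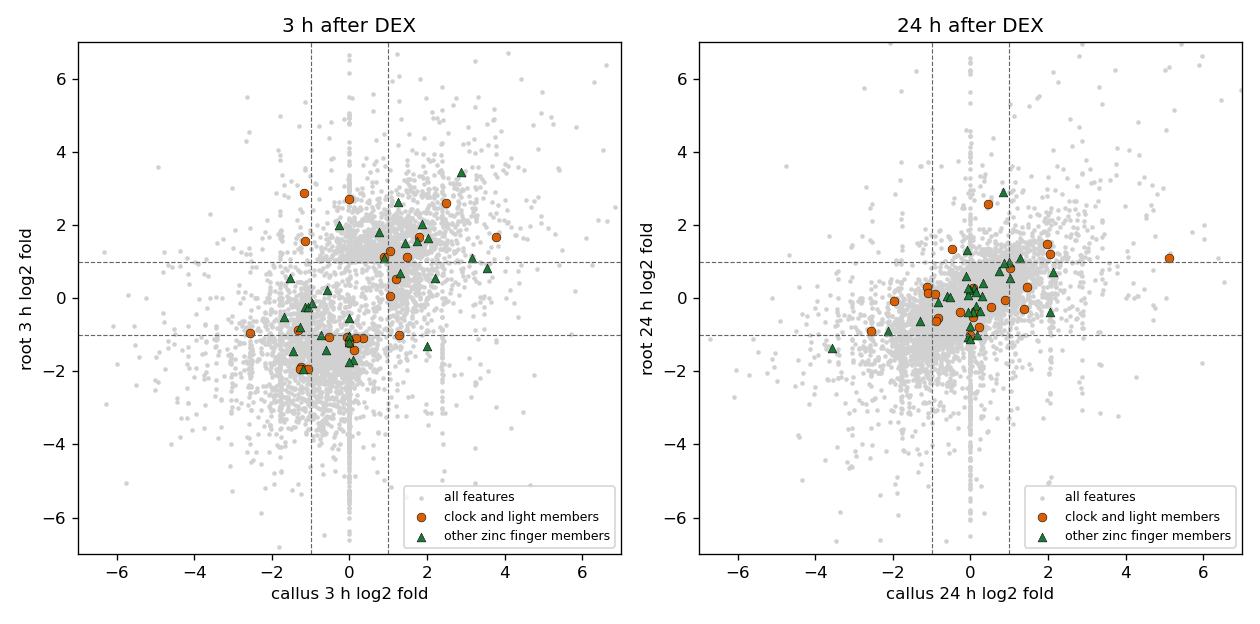
Root against callus log2 folds after 3 h (left) and 24 h (right), with all features in grey, clock and light members as circles and other zinc finger members as triangles, and dashed lines at 2-fold. Features beyond a log2 fold of 7 on either axis are not drawn, and members with opposite calls lie in the upper left and lower right corners after 3 h, with none there after 24 h.

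Dividing a member's fold after 24 h by that after 3 h compares the induced libraries of a tissue directly. In callus 11 of the 54 members were at least 2-fold above their 3 h value after 24 h and 13 at least 2-fold below it, where 15% and 19.8% of all features were. In roots 10 were above and 12 below, where 26% and 23% of all features were, and 5 and 19 with both root columns centred, against 16.7% above and 35.3% below over all features under the same centring. Of the 9 CHP-rich genes, 7 were below in callus and 4 in roots (7 in roots with centred columns), and 1 and 0 were above. Of the 10 CONSTANS-like genes 4 were above and 3 below in callus, and 3 above and 4 below in roots, or 3 and 5 with centred columns. The CONSTANS-like genes that were above in roots were the CCT genes Solyc03g119540, Solyc04g007210 and Solyc05g009310, and those below were tomato CONSTANS-like 1, 2 and 3 and Solyc06g063280.

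**Figure D4:**
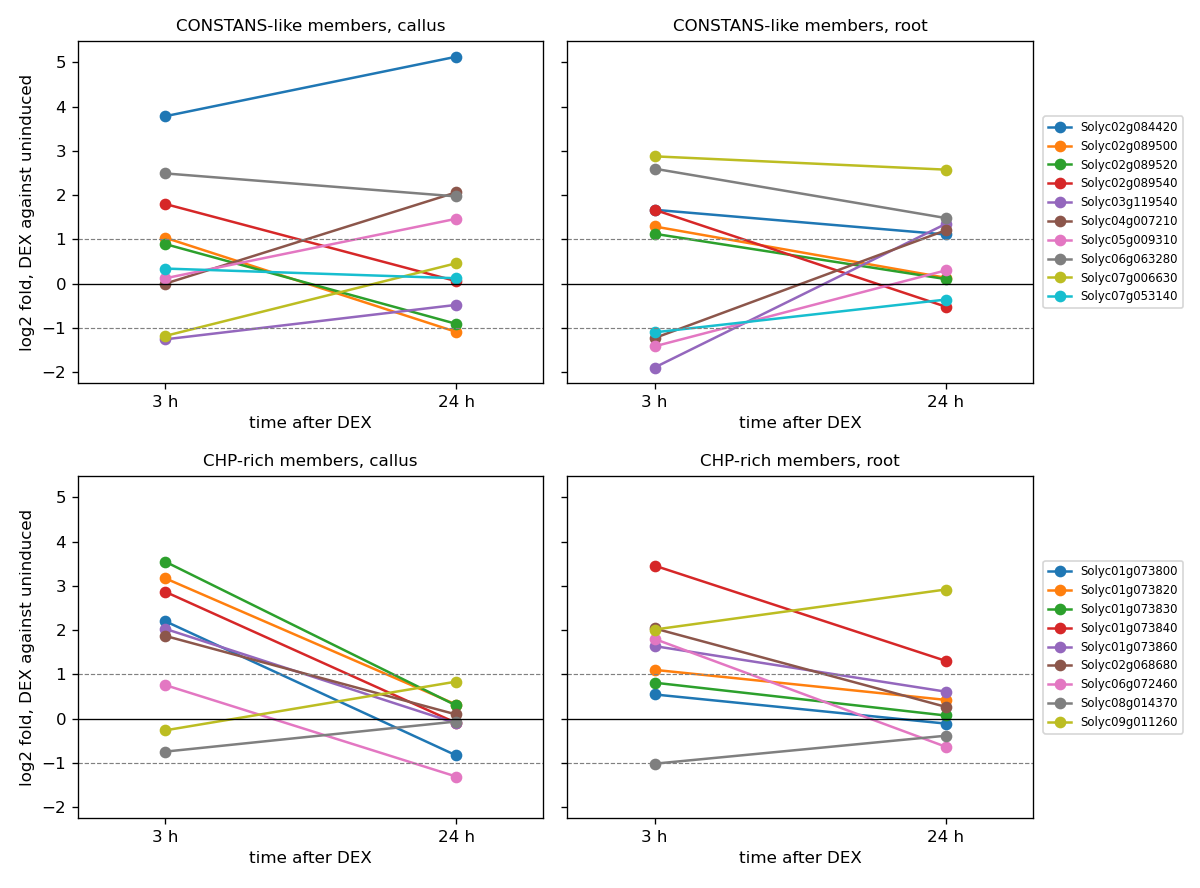
Log2 folds after 3 h and 24 h after DEX, joined by a line for each gene, for the 10 CONSTANS-like members (upper panels) and the 9 CHP-rich members (lower panels) in callus (left) and roots (right), with dashed lines at 2-fold. CONSTANS-like lines cross in both tissues, while 7 of the 9 CHP-rich lines run downward in each tissue.

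By number of comparisons past 2-fold, 24 of the 54 members passed in 1, 15 in 2, 11 in 3 and 4 in all 4. Under centring 9 passed in none, 16 in 1, 15 in 2, 11 in 3 and 3 in all 4. Of the 24 that passed in 1 as deposited, 11 did so in roots after 3 h, 10 in callus after 3 h, 3 in callus after 24 h and 0 in roots after 24 h. Calls of these families were thus most often made after 3 h, as they were over the whole table in both tissues. Of all features 27.8% were higher and 23.4% lower in callus after 3 h, and 18% and 21.5% after 24 h. In roots 31.3% and 44.6% were higher or lower after 3 h, and 11.7% and 21.9% after 24 h. In all 4 comparisons 4.17% of all features were higher and 3.87% lower, or 5.17% and 2.7% with centred columns. Shares of all features that passed in just 1, 2 or 3 comparisons are not given here.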

How the data were processed

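Polyadenylated RNA of 18 libraries was sequenced paired-end on an Illumina HiSeq instrument after stranded library preparation, per the labels' protocols. The submitters' processing notes name CASAVA 1.8.1. Details of alignment, genome build, counting and scaling were not given in the sources used here. Per the file headers, the authors deposited for each of 4 comparisons a signed fold score from CLC bio software, that fold rewritten as a ratio, and its log10. Both deposited files hold the same folds, with a largest difference of 0. The reference group is not named and was read as the uninduced libraries of the tissue, since both transgenes stand far above 1. Per the deposited file's name, the table keeps what passed an FDR of 0.05 with at least 2-fold anywhere. Depth, p-values and replicate values were not analysed here, which leaves the error of every fold unknown.

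Log2 folds, counts at 2-fold, 24 h to 3 h ratios and medians were computed with Python 3.11.15, numpy 2.4.6 and pandas 2.3.3, and plotted with matplotlib 3.10.9. Counting was tested on simulated data with planted folds. Members were sorted into families by their descriptions, and domain names come from the table. Members and word lists were chosen with earlier results of these data known. All clock and light members are named, and of the other zinc fingers the 5 highest and 5 lowest in each comparison and those past 2-fold in the same direction in all 4. The remaining zinc finger members, the other light genes and the opposite calls were named with their values in view. The supplied RefSeq gene table matched 0 of the 54 identifiers, so no sequences or positions are shown. The linear model planned for library values could not be used. Alternatives were a 4-fold threshold, centring on column medians, removal of exact or repeated folds, words at word starts, and wider spelling.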

Additional observations from a re-analysis of the deposited data

How the results depend on the processing

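The counts of higher and lower members in the 4 comparisons, 16 in all, were repeated under each alternative. Removing features with a fold of exactly 1 or a repeated fold (7 members in callus, 0 in roots) and matching words at word starts left all 16 within 1.5 times. Centring took 4 beyond 1.5 times, all of them lower members in roots. At 3 h clock and light members lower went from 10 to 3 and other zinc fingers lower from 10 to 3, and after 24 h from 1 to 0 and from 4 to 1. Higher members in roots rose within 1.5 times. Clock and light went from 9 to 10 after 3 h, and other zinc fingers from 10 to 14 after 3 h and from 4 to 5 after 24 h. The cause of the shift in the root columns was not tested. A 4-fold threshold took 15 beyond 1.5 times, which its own construction shows, since of the 103 member folds past 2-fold 79 are under 4-fold. Clock and light members then gave 2 higher and 1 lower in callus after 3 h, 2 and 1 after 24 h, 3 and 0 in roots after 3 h, and 1 and 0 after 24 h. The other zinc fingers gave 5 and 0 in callus after 3 h, 2 and 2 after 24 h, 4 and 0 in roots after 3 h, and 1 and 0 after 24 h. Shares of all features at 4-fold are not given here, so these counts cannot be set against the whole table. Chosen after seeing the data, any spelling of zinc finger in the description added 35 genes, for 66 in all. It gave 27 higher and 11 lower in callus after 3 h, and 11 and 5 after 24 h. In roots it gave 29 and 20 after 3 h, and 7 and 6 after 24 h. All features gave 27.8% and 23.4%, then 18% and 21.5% in callus, and 31.3% and 44.6%, then 11.7% and 21.9% in roots. No paired analysis was possible because the table holds comparisons and no columns per replicate. Leaving out each replicate was not run for the same reason. Depth is unknown, so a fold of a gene with few reads cannot be told from that of a deeply read gene.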

Other observations

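Zinc finger genes whose descriptions are spelled otherwise than the rule's words number 35, and they were gathered after the data had been seen. Of these 16 were higher and 4 lower in callus after 3 h, and 7 higher and 2 lower after 24 h. All features gave 27.8% and 23.4% there after 3 h and 18% and 21.5% after 24 h, where 45.7% and 11.4% of these genes were higher or lower after 3 h. In roots 19 were higher and 10 lower after 3 h, and 3 higher and 2 lower after 24 h. As shares these were 54.3% and 28.6%, beside 31.3% and 44.6% of all features, then 8.57% and 5.71%, beside 11.7% and 21.9%. With the root columns centred 22 were higher and 3 lower after 3 h, and 5 and 1 after 24 h, where all features gave 38.4% and 25.4%, then 14.1% and 19.0%. The Cys2/His2 gene Solyc03g115450 was higher in all 4 comparisons, with callus folds of 12.8-fold and 6.43-fold and root folds of 6.18-fold and 3.04-fold after 3 h and 24 h per the authors' deposited table. A second one higher in all but roots after 24 h was Solyc05g054650, described as ZFP19, with 5.43-fold, 2.64-fold, 3.29-fold and 1.90-fold in the same order per the authors' deposited table.

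Genes with A20 or AN1 zinc fingers, described as stress-associated proteins, number 5 and were all higher in roots after 3 h, with the column centred or not. In callus after 3 h 3 of the 5 were higher and 0 lower, and after 24 h 1 was higher in callus and 0 in roots, or 1 in roots with the column centred. Solyc08g079700 stood at 3.12-fold in callus and 6.62-fold in roots after 3 h per the authors' deposited table. Of 6 genes with CCCH zinc fingers, 3 were higher and 0 lower in callus after 3 h, and 3 higher and 2 lower in roots, or 4 and 0 with the column centred. Beside these small sets, 27.8% of all features were higher in callus after 3 h, and 31.3% in roots or 38.4% with the column centred. Lower after 3 h were 23.4% in callus, and 44.6% in roots or 25.4% with the column centred. Higher after 24 h were 18% in callus, and 11.7% in roots or 14.1% with the column centred. Solyc06g054600, a CCCH gene, was higher in all 4 comparisons with callus folds of 2.52-fold and 3.28-fold and root folds of 3.75-fold and 2.33-fold per the authors' deposited table.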
